A study of Mus musculus with 12 samples.

Results

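The genes described here are the G1 cyclins and the kinases they activate: the D-type cyclins Ccnd1, Ccnd2 and Ccnd3, the E-type cyclins Ccne1 and Ccne2, the kinases Cdk2, Cdk4 and Cdk6, and the phosphatase gene Cdc25a. They are 9 of the 26301 genes in the count table, taken by symbol. Cdk4 was chosen by its measured level, which was higher in TKO than in DKO tumors, and the other 8 by their names. For Cdk4 all values are given as a description and with no test, and counts of calls are over the 8 other genes. All 9 had enough counts to be among the 13882 genes tested.

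RNA came from mouse liver in 3 groups of 4 libraries. The control libraries were non-tumor livers of wild-type mice. DKO libraries were spontaneous liver tumors of Alb-Cre mice with a knockout of E2f7 and E2f8, and TKO libraries were such tumors from mice in which Alb-Cre had deleted Rb1 along with E2f7 and E2f8. The labels give the age of all mice as adult, and all came from a study of ageing animals kept to a humane end point, on an FVB background. The paper reports shorter lives for TKO than for DKO mice, and a longer tumor latency in DKO mice. Age at sampling may thus differ between the tumor groups, and its part cannot be told apart from that of genotype. The albumin promoter drives Cre in hepatocytes, so other liver cells keep the deleted genes, and each library is bulk tissue. In bulk RNA, fewer cells of a type and less RNA per cell cannot be told apart. Genotype and tumor state change together between control and tumor libraries, and their parts cannot be told apart.

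D-type cyclins rise when growth signals reach a resting cell, bind Cdk4 or Cdk6, and the active kinase phosphorylates the retinoblastoma protein RB. RB then releases E2F transcription factors, which turn on Ccne1, Ccne2, Cdc25a and genes of DNA replication. Cyclin E with Cdk2 completes the phosphorylation of RB and starts S phase, and CDC25A activates Cdk2 by removing inhibitory phosphates. E2F7 and E2F8 are atypical E2Fs that repress many of the same genes later in the cycle. Hepatocytes of the adult liver are mostly quiescent, and Ccnd1 is the D-type cyclin best known from their re-entry into the cycle after partial hepatectomy.

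Because E2F factors act at promoters, the RefSeq promoters (GRCm38.p6, from 250 bases before to 50 bases after each start) were searched for the E2F motif spelled TTTCCCGC, TTTGGCGC, TTTCGCGC or TTTGCCGC on both strands. Entries were found for 6 of the 9 genes, 7 promoters in all. The genes with no entry were Ccnd1, Ccnd2 and Ccne2. A match stood in the promoters of Cdk2 and Cdc25a, and none of these letters stood in the windows of Ccnd3, Ccne1, Cdk4 or Cdk6. Of all 32851 promoters in the table, 744 (2.26%) held a match. The stretches around both matches are shown, with the motif in capitals. Tumor libraries were all above the controls for Cdk2 (in TKO) and Cdc25a (in DKO), as for 4.38% and 8.87% of all genes. The same held for Cdk6 (in DKO), which had no match. Ccne1, named above as turned on by E2F factors, had none either. The level of Cdk4 is left out here, since the gene was chosen by it. A link between a match and the level of a gene was not tested. The positions are on GRCm38.p6, a different build from the mm9 of the counts. The Cdc25a stretch is chr9:109875472-109875559 on the plus strand, with the motif at position -67 from the start. The Cdk2 stretch is chr10:128705144-128705231 on the minus strand, with the motif at position -140 in its reverse spelling.
Cdc25a: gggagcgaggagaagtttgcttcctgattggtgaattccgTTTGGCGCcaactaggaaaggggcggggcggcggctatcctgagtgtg
Cdk2: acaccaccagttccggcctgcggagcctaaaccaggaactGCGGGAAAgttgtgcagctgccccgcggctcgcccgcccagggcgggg

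Libraries held 9165812 to 16424973 counts, and levels are given as CPM, counts scaled to the same library total, after TMM scaling, which corrects the totals for a few very abundant genes. Alb alone took between 4.82% and 22.7% of the counts. Rb1, the gene deleted only in TKO mice, was at 6.52 to 10.7 CPM in the controls, 7.99 to 11.3 in DKO and 3.21 to 5.47 in TKO, so that TKO lay below both other groups, which overlapped. E2f7 was at most 1.84 CPM in any library. E2f8 was at 4.52 to 8.97 CPM in the controls, 7.59 to 45.6 in DKO and 12.3 to 52.2 in TKO, so its RNA was not lower in the tumors labelled as lacking it. The counts run over the whole gene and cannot show the loss of a part of it, so DKO and TKO below name the libraries carrying those labels.

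Ccnd1 had the highest level per kilobase of exon of the 9 genes on average in each group. It lies at chr7:152115836-152125774 on the minus strand (mm9, Entrez 12443). Its level was 126, 48.1, 100.03 and 159 CPM in controls 1 to 4, 73.2, 153, 154 and 155 CPM in DKO 1 to 4, and 109.6, 46.8, 28.3 and 99.0 CPM in TKO 1 to 4. DKO 2, DKO 3 and DKO 4 lay close together while DKO 1 stood apart below them, TKO 2 and TKO 3 were below every control and every DKO library, and the groups overlapped. The group means were 108 ± 47.0 CPM in controls, 134 ± 40.4 in DKO and 70.9 ± 39.5 in TKO (SD, n = 4 each). Its log2 fold change was 0.30 ± 0.44 (standard error) between DKO and control (adjusted p = 0.710, edgeR quasi-likelihood test), -0.61 ± 0.44 between TKO and control (adjusted p = 0.526) and -0.92 ± 0.44 between TKO and DKO (adjusted p = 0.572). None of these differences passed the test, and the lowest and highest control differed by more than the group means did.

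Ccnd2, at chr6:127075797-127101066 on the minus strand (Entrez 12444), was at 15.1, 10.2, 9.35 and 21.8 CPM in controls 1 to 4. It was at 6.90, 15.3, 21.7 and 18.9 CPM in DKO 1 to 4 and at 13.7, 12.1, 11.97 and 12.5 CPM in TKO 1 to 4. The 4 TKO libraries lay within 2 CPM of each other and inside the range of both other groups. In log2 terms the difference was 0.15 ± 0.33 between DKO and control (adjusted p = 0.814), -0.17 ± 0.33 between TKO and control (adjusted p = 0.849) and -0.32 ± 0.33 between TKO and DKO (adjusted p = 0.785).

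Ccnd3, at chr17:47642000-47736632 on the plus strand (Entrez 12445), was at 16.7, 22.7, 15.4 and 23.5 CPM in controls 1 to 4. It was at 14.3, 21.9, 18.04 and 18.5 CPM in DKO 1 to 4 and at 22.9, 25.4, 21.0 and 14.2 CPM in TKO 1 to 4. The 3 groups overlapped, with the lowest value in TKO 4 and the highest in TKO 2. On the log2 scale the fitted change was -0.10 ± 0.21 between DKO and control (adjusted p = 0.792), 0.10 ± 0.21 between TKO and control (adjusted p = 0.866) and 0.20 ± 0.21 between TKO and DKO (adjusted p = 0.785).

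Levels of different genes were compared as CPM per kilobase, over the union of each gene's exons. The summed D-type cyclins were at 39.4 ± 13.3 CPM per kilobase in controls, 45.7 ± 12.7 in DKO and 29.97 ± 9.78 in TKO (SD, n = 4 each). Ccnd1 made up 69.5% ± 12.1 of this sum in controls, 75.8% ± 2.79 in DKO and 57.9% ± 17.2 in TKO. In 3 libraries its share was lower than in the others, at 51.3% in control 2, 47.7% in TKO 2 and 39.3% in TKO 3. In TKO 3 Ccnd3 took the largest share, at 49.6%, and in TKO 2 it took 44.0%. The share of Ccnd2 lay between 4.55% and 11.2% in all 12 libraries. Ccnd1 shares 818 bases (21.3% of its exon length) with Oraov1 on the opposite strand, counted under the symbol LTO1 at 8.05 to 15.2 CPM, and Ccnd3 shares 353 bases (15.7%) with Bysl, at 8.11 to 17.4 CPM. The spread of the Ccnd1 share between replicates was wide in controls and TKO, and the groups overlapped.

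**Figure D1:**
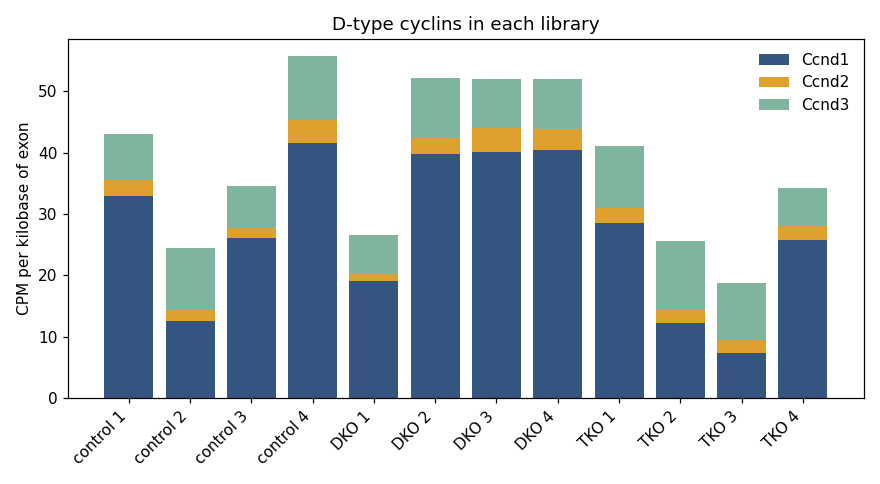
Stacked bars of Ccnd1, Ccnd2 and Ccnd3 in CPM per kilobase of exon (y axis) in each of the 12 libraries (x axis). Ccnd1 is the largest part in 11 libraries, and in TKO 3 the largest part is Ccnd3, at 49.6% of the sum.

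Cdk4 and Cdk6 are the partners of the D-type cyclins. Cdk4, at chr10:126500590-126504976 on the plus strand (Entrez 12567), was at 32.9, 39.96, 39.9 and 32.2 CPM in controls 1 to 4, at 33.4, 34.9, 34.4 and 28.8 CPM in DKO 1 to 4, and at 63.4, 54.7, 45.6 and 53.9 CPM in TKO 1 to 4. Every TKO library was above every control and every DKO library, while DKO and control overlapped, with DKO 4 the lowest of all. As a description of the gene chosen for this pattern, the means were 36.2 ± 4.28 CPM in controls, 32.9 ± 2.80 in DKO and 54.4 ± 7.27 in TKO (SD, n = 4 each). The TKO level was 1.66 times that of DKO and 1.503 times that of the controls in the fit, on log2 scales 0.73 ± 0.13 and 0.59 ± 0.13 (standard error). The log2 fold change between DKO and control was -0.14 ± 0.13. In 604 bases, 18.6% of its exon length, Cdk4 overlaps Tspan31 on the opposite strand. Tspan31 was more abundant than Cdk4, at 275 to 314 CPM in controls, 163 to 272 in DKO and 246 to 337 in TKO. The strand setting of the counting is not given in the sources used here, so reads from the shared bases cannot be told apart.

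Cdk6 had the smallest SD of the 9 genes in the controls, and its DKO libraries were all above the controls. It lies at chr5:3343893-3523218 on the plus strand (Entrez 12571). It was at 9.42, 9.47, 9.83 and 8.79 CPM in controls 1 to 4, at 17.6, 19.5, 12.8 and 25.4 CPM in DKO 1 to 4, and at 11.7, 11.8, 8.74 and 19.7 CPM in TKO 1 to 4. In TKO, 3 of 4 libraries were above the highest control and TKO 3 was below the lowest. The means were 9.37 ± 0.432 CPM in controls, 18.8 ± 5.20 in DKO and 13.0 ± 4.69 in TKO (SD, n = 4 each). Cdk6 was 2.01 times as high in DKO as in controls (log2 fold change 1.01 ± 0.25, adjusted p = 0.0538), short of the 0.05 threshold. Fitted log2 fold changes were 0.47 ± 0.25 between TKO and control (adjusted p = 0.376) and -0.54 ± 0.24 between TKO and DKO (adjusted p = 0.554).

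The DKO difference of Cdk6 sat at the threshold. It passed in 8 of 21 alternative analyses, among them DESeq2 (adjusted p = 0.00809), and its adjusted p ran from 0.00809 to 0.283 over all of them. Leaving out 1 library gave a call without DKO 3 (adjusted p = 0.0372), without TKO 3 (adjusted p = 0.0337) and without TKO 4 (adjusted p = 0.0387), and none for the other 9 libraries. The log2 fold change stayed between 0.83 and 1.26.

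Cdk6 took a larger share of both kinases in DKO than in the other groups. Cdk6 made up 18.5% ± 1.33 of Cdk4 plus Cdk6 per kilobase in controls, 33.0% ± 7.83 in DKO and 17.0% ± 4.81 in TKO (SD, n = 4 each). Its share was 17.1% to 20.0% in the controls, 24.5% to 43.4% in DKO and 13.8% to 24.1% in TKO. The DKO libraries thus did not overlap those of either other group, and TKO 4 was the one TKO library above the controls. The sum of both kinases was 13.7 ± 1.41 CPM per kilobase in controls, 15.2 ± 0.849 in DKO and 20.2 ± 2.79 in TKO. These shares hold Cdk4, which was chosen for being higher in TKO than in DKO. A lower Cdk6 share in TKO than in DKO is thus in part set by that choice. Cdk6 itself overlapped between DKO and TKO, and the shares are given with no test.

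The libraries highest in Cdk6 were DKO 4, TKO 4 and DKO 2, and these were also the libraries highest in Glul, a target of beta-catenin in hepatocytes. Glul, which encodes glutamine synthetase, was at 7472 CPM in DKO 4, 10331 in TKO 4 and 3138 in DKO 2, and at 213 to 781 in the other 9 libraries. Axin2 and Lgr5, also beta-catenin targets, were highest in the same 3 libraries. Cdk6 was above every control in DKO 1 and DKO 3 as well, where Glul was at 223 and 473 CPM. The part of this difference between tumors in the Cdk6 values was not tested.

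Ccne1 and Ccne2, the cyclins of Cdk2, were the members with the widest spread between TKO tumors relative to their means. Ccne1, at chr7:38883003-38892553 on the minus strand (Entrez 12447), was at 4.15, 1.60, 2.71 and 4.76 CPM in controls 1 to 4, at 7.13, 13.5, 3.02 and 4.07 CPM in DKO 1 to 4, and at 20.0, 10.9, 2.15 and 4.70 CPM in TKO 1 to 4. In each tumor genotype 2 of 4 libraries were above the highest control, and the others were within the control range. Its log2 fold change was 1.04 ± 0.64 between DKO and control (adjusted p = 0.348), 1.497 ± 0.64 between TKO and control (adjusted p = 0.276) and 0.45 ± 0.62 between TKO and DKO (adjusted p = 0.848). With the Y-linked genes as a covariate the DKO difference turned to -0.67 and the TKO difference was 0.03, both against control. Y-linked RNA was present in every library, at a summed 92.4 to 156 CPM. It averaged 140 ± 19.4 CPM in controls, 115 ± 7.70 in DKO and 108 ± 18.5 in TKO (SD, n = 4 each). The covariate thus differed between groups and takes up part of the difference between them. The raw counts of Ccne1 were 13 to 331, so the low libraries rest on few reads.

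Ccne2, at chr4:11118498-11131926 on the plus strand (Entrez 12448), was the lowest of the 9 genes per kilobase in each group, with 6 to 171 raw counts. It was at 1.93, 0.738, 1.97 and 2.86 CPM in controls 1 to 4, at 2.22, 5.85, 3.13 and 1.06 CPM in DKO 1 to 4, and at 10.3, 3.70, 1.61 and 3.58 CPM in TKO 1 to 4. TKO 1 and DKO 2 were the highest libraries, as they were for Ccne1, and both tumor genotypes overlapped the controls. In log2 terms the difference was 0.68 ± 0.61 between DKO and control (adjusted p = 0.530), 1.34 ± 0.61 between TKO and control (adjusted p = 0.301) and 0.66 ± 0.59 between TKO and DKO (adjusted p = 0.754). With the Y-linked covariate the difference of Ccne2 between DKO and control turned to -0.45. Without TKO 1 the differences between TKO and DKO turned to -0.22 for Ccne1 and -0.039 for Ccne2. Ccne2 shares 609 bases, 17.4% of its exon length, with Ints8 on the opposite strand, which was at 15.1 to 28.0 CPM. Per kilobase, Ccne1 made up 70.2% ± 4.61 of both E-type cyclins in controls, 73.8% ± 12.5 in DKO and 69.5% ± 7.68 in TKO (SD, n = 4 each), shares that overlapped between all groups.

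Cdk2, the kinase of cyclin E, was higher in every TKO library than in any control. It lies at chr10:128134995-128142107 on the minus strand (Entrez 12566). Its level was 13.3, 11.9, 16.3 and 17.0 CPM in controls 1 to 4, 16.7, 28.5, 16.1 and 12.6 CPM in DKO 1 to 4, and 26.4, 26.2, 23.5 and 31.9 CPM in TKO 1 to 4. DKO 2 was the only DKO library above the controls, and it lay within the TKO range. The means were 14.6 ± 2.41 CPM in controls, 18.5 ± 6.92 in DKO and 27.0 ± 3.52 in TKO (SD, n = 4 each). The TKO level was 1.84 times the control level in the fit (log2 fold change 0.88 ± 0.23, adjusted p = 0.132), which did not pass the test. DESeq2 called it, with a log2 fold change of 0.87 (adjusted p = 0.0264), and it was the only one of 21 alternatives to do so, with adjusted p from 0.0264 to 0.466. On the log2 scale the fitted change was 0.33 ± 0.23 between DKO and control (adjusted p = 0.400) and 0.55 ± 0.22 between TKO and DKO (adjusted p = 0.542).

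Cdc25a was higher in every DKO library than in any control, and in 3 of 4 TKO libraries. It lies at chr9:109778083-109796392 on the plus strand (Entrez 12530). It was at 7.71, 4.43, 6.17 and 6.74 CPM in controls 1 to 4, at 11.3, 13.0, 8.81 and 9.20 CPM in DKO 1 to 4, and at 17.2, 12.5, 7.29 and 10.5 CPM in TKO 1 to 4. TKO 1 was the highest library and TKO 3 lay inside the control range. Fitted log2 fold changes were 0.74 ± 0.26 between DKO and control (adjusted p = 0.111), 0.92 ± 0.26 between TKO and control (adjusted p = 0.146) and 0.17 ± 0.25 between TKO and DKO (adjusted p = 0.857). The TKO difference was called by DESeq2 (adjusted p = 0.0449) and without TKO 3 (adjusted p = 0.0436), and its adjusted p over the alternatives ran from 0.0436 to 0.605.

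**Figure D2:**
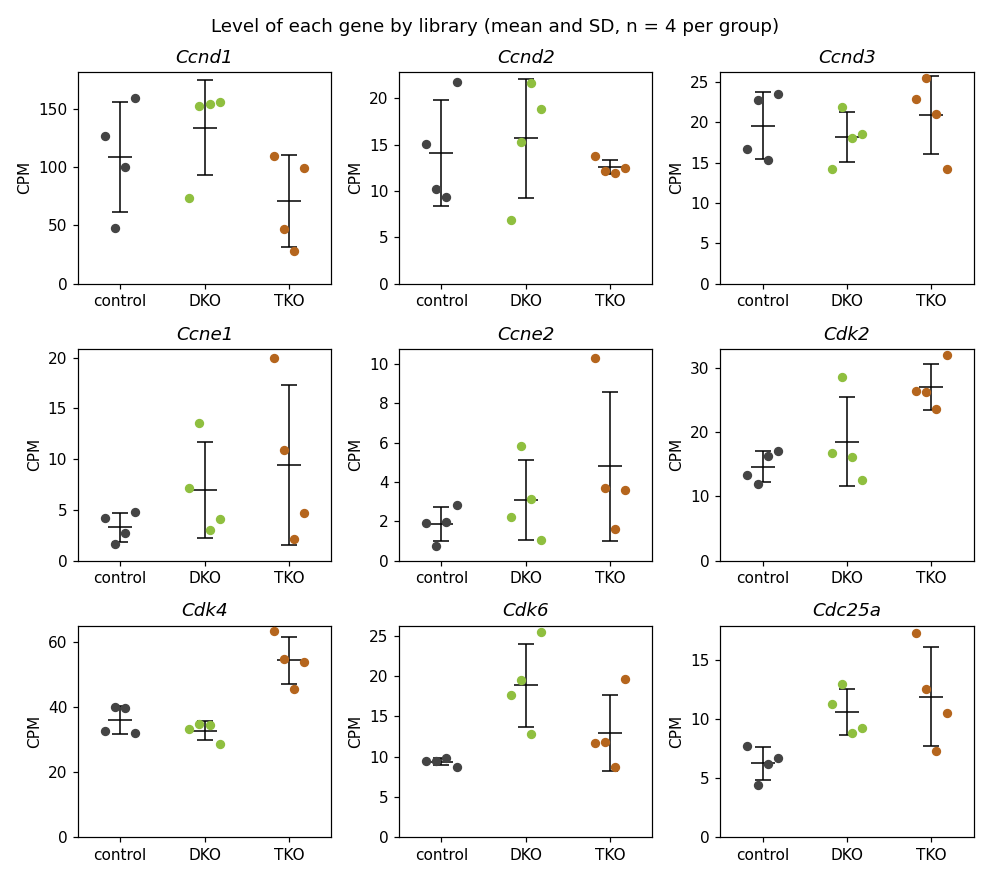
Level of each of the 9 genes in CPM (y axis, from 0) in the 4 libraries of each group (points), with the group mean and SD (bars). Cdk4 and Cdk2 lie higher in all TKO libraries than in any control, and Cdk6 and Cdc25a in all DKO libraries. TKO 1 is the highest library for Ccne1 and Ccne2, followed by DKO 2.

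Over the 8 genes other than Cdk4, edgeR called 0 in each comparison at an adjusted p of 0.05. The background was low: it called 336 of 13882 genes (2.42%) between DKO and control, 12 (0.0864%) between TKO and control and 0 (0%) between TKO and DKO. At an unadjusted p under 0.05 the members numbered 2, 4 and 2 of 8 in these comparisons. Of all genes, 3329 (24%), 2259 (16.3%) and 1250 (9%) did so. DESeq2 called 1 of 8 between DKO and control (Cdk6), 2 of 8 between TKO and control (Cdk2 and Cdc25a) and 0 of 8 between TKO and DKO. Its backgrounds were 10.4%, 3.49% and 0.398% of the genes with an adjusted p, the last of these 56 genes. The shares over 8 genes were not tested against these backgrounds.

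Members whose tumor libraries were all above the controls numbered 2 of 8 in DKO (Cdk6 and Cdc25a), where 8.87% of all genes did the same, and 1 of 8 in TKO (Cdk2), where 4.38% did. Between TKO and DKO none of the 8 was higher in all TKO libraries, against 2.75% of all genes. No member was lower without overlap in any comparison, which 7.3% of all genes were between DKO and control, 3.29% between TKO and control and 2.12% between TKO and DKO. The median log2 fold change of the 8 genes was 0.50 between DKO and control, 0.68 between TKO and control and 0.19 between TKO and DKO, where the median of all genes was 0.02, 0.02 and 0.01. In the first comparison 7 of 8 were positive, in the second 6 and in the third 5, with 51.6%, 52.5% and 51.2% of all genes positive. The first and second comparisons share the control libraries.

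**Figure D3:**
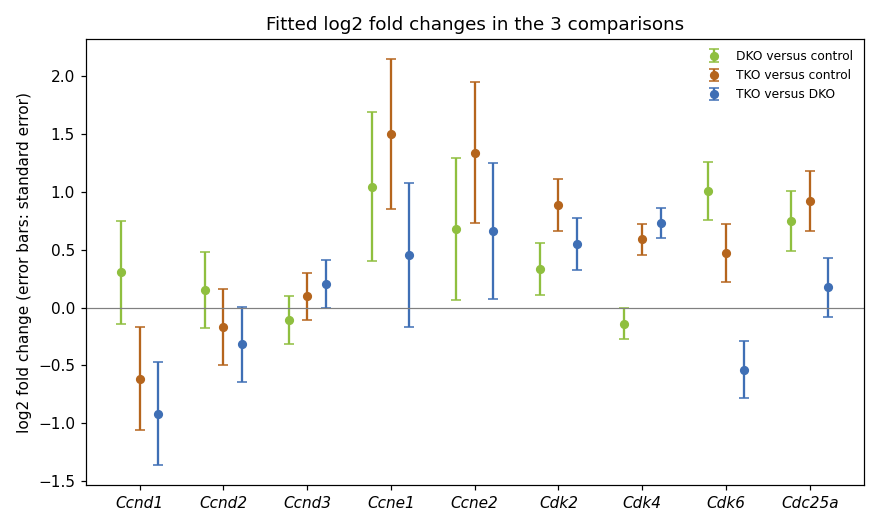
Fitted log2 fold change (y axis) of each gene in the 3 comparisons, with standard errors as bars. The largest values are those of Ccne1 and Ccne2 in TKO against control, 1.497 and 1.34, with standard errors of 0.64 and 0.61, and Cdk4 is drawn as a description only.

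The E-type cyclins and Cdc25a were highest in the libraries with the most S phase and mitosis RNA. The summed CPM of 16 genes of DNA replication and mitosis was 68.4 to 195 in the controls, 112 to 435 in DKO and 116 to 409 in TKO. DKO 2 (435) and TKO 1 (409) were the highest, and they were also the highest libraries for Ccne1, Ccne2 and Cdc25a. TKO 3 and DKO 4, the tumors lowest in this sum at 116 and 112, were also the tumors lowest in Ccne2. This did not hold for Ccne1 and Cdc25a, for which the lowest tumors were TKO 3 and DKO 3. They were at 2.15 and 3.02 CPM of Ccne1 and at 7.29 and 8.81 CPM of Cdc25a, while DKO 3 had a sum of 217. TKO 4, with a sum of 240, was at 4.70 CPM of Ccne1, inside the control range. For Cdk2 the highest libraries, TKO 4, DKO 2 and TKO 1, were also the 3 highest in this sum. TKO 3 departed from this, at 23.5 CPM of Cdk2, above every control, with a sum below that of control 4. The part of these genes' differences between libraries in the differences between groups was not tested.

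**Figure D4:**
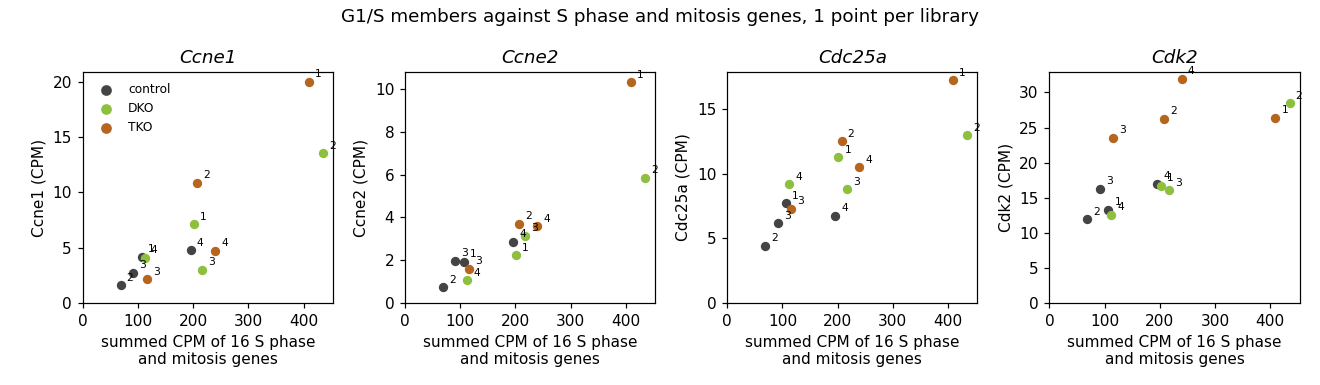
Level of Ccne1, Ccne2, Cdc25a and Cdk2 in CPM (y axes) against the summed CPM of 16 S phase and mitosis genes (x axis), 1 point per library with its replicate number. DKO 2 and TKO 1 stand at the right, at 435 and 409, and are highest in Ccne1, Ccne2 and Cdc25a and among the 3 highest in Cdk2, for which all TKO libraries lie above the controls.

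Inhibitors of these kinases were called in DKO. Of 7 CDK inhibitor genes, edgeR and DESeq2 both called 2, which rose between control and DKO, and 0 that fell, with a median log2 fold change of 0.46. Of all genes, edgeR called 2.42% and DESeq2 10.4% in this comparison, and 0.0864% and 3.49% between TKO and control. The inhibitors were not tested against these shares. Cdkn2c, which encodes the Cdk4 and Cdk6 inhibitor p18, was at 1.83 to 3.44 CPM in the controls, 6.98 to 12.9 in DKO and 3.45 to 15.8 in TKO. It rose 4.36-fold in DKO (log2 fold change 2.13 ± 0.40, adjusted p = 0.0376). Cdkn1a, which encodes p21, an inhibitor of cyclin-dependent kinases induced by p53, was at 2.91 to 13.5 CPM in the controls, 17.5 to 41.7 in DKO and 13.9 to 28.9 in TKO. It rose 5.40-fold in DKO (log2 fold change 2.43 ± 0.47, adjusted p = 0.0389). In TKO edgeR called no inhibitor, with 2 of 7 at an unadjusted p under 0.05 against control, as were 16.3% of all genes. The log2 fold changes against control were 2.09 ± 0.40 for Cdkn2c (adjusted p = 0.0851) and 1.60 ± 0.46 for Cdkn1a (adjusted p = 0.146). DESeq2 called both in TKO, Cdkn2c with an adjusted p of 0.000224 and Cdkn1a with one of 0.0260, and edgeR called Cdkn2c without TKO 3 (adjusted p = 0.00854), while voom called Cdkn1a (adjusted p = 0.0491). In TKO against DKO neither tool called any of the 7, and the lowest unadjusted p values were those of Cdkn2b (log2 fold change -0.90 ± 0.33, adjusted p = 0.498) and Cdkn1a (-0.84 ± 0.44, adjusted p = 0.585). Cdkn1a and Cdkn2c stood above all controls in every tumor library. Of all genes, 8.87% did so in DKO and 4.38% in TKO. In TKO the margins were small. Cdkn2c in TKO 3 was at 3.45 CPM against 3.44 in the highest control, and Cdkn1a in TKO 1 at 13.9 CPM against 13.5.

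Of 13 RB and E2F family genes, edgeR called 1 between DKO and control (against 2.42% of all genes) and 0 in the other comparisons. There, 6 (TKO against control) and 2 (TKO against DKO) had an unadjusted p under 0.05, against 16.3% and 9% of all genes. Rbl2, which encodes the RB relative p130 found on E2F promoters in quiescent cells, fell from 33.3 to 36.02 CPM in the controls to 16.9 to 21.2 CPM in DKO (log2 fold change -0.86 ± 0.19, adjusted p = 0.0460). In TKO the lowest unadjusted p values were those of Tfdp1, a dimer partner of E2F factors, with a log2 fold change against control of 0.75 ± 0.17 (adjusted p = 0.118), and of the deleted gene Rb1 (-0.90 ± 0.22, adjusted p = 0.122). Between TKO and DKO they were again Rb1 (-1.01 ± 0.21, adjusted p = 0.281) and Tfdp1 (0.52 ± 0.17, adjusted p = 0.450). DESeq2 called more of them: E2f8 (higher), Rbl2 and Tfdp2 (both lower) in DKO against control, E2f8 and Tfdp1 (both higher) and Rb1 and Rbl2 (both lower) in TKO against control, and Rb1 (lower, adjusted p = 0.00731) in TKO against DKO. Of all genes, DESeq2 called 10.4%, 3.49% and 0.398% in these comparisons. Without TKO 3 edgeR called Tfdp1 in TKO against control (adjusted p = 0.0213). The median log2 fold change of the 13 genes was 0.23 in DKO and 0.25 in TKO, both against control.

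Of 12 genes that activate the complexes or turn them over, edgeR called 1 in DKO against control, which fell. DESeq2 called 2 there, the same gene and Cdc25b, which was higher (log2 fold change 0.85, adjusted p = 0.0151). Of all genes, edgeR called 2.42% and DESeq2 10.4% in this comparison. Fbxo31, an F-box gene linked to cyclin D1 degradation, fell from 22.5 to 37.0 CPM in the controls to 7.67 to 14.9 CPM in DKO (log2 fold change -1.25 ± 0.26, adjusted p = 0.0425). In TKO it was at 12.1 to 25.02 CPM, and neither tool called any of the 12 genes in either comparison with TKO. In edgeR 4 (against control) and 1 (against DKO) had an unadjusted p under 0.05 there, against 16.3% and 9% of all genes. The lowest unadjusted p values against control there were those of Ambra1, an adaptor for the degradation of D-type cyclins (log2 fold change 0.51 ± 0.15, adjusted p = 0.146), and Cdc25b, a relative of Cdc25a (0.74 ± 0.23, adjusted p = 0.163). In TKO against DKO they were those of Fbxo31 (0.63 ± 0.26, adjusted p = 0.542) and Fbxw7, which directs cyclin E to degradation (-0.50 ± 0.28, adjusted p = 0.603).

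Of 5 later genes, the A- and B-type cyclins with Ccnf and Cdk1, edgeR called none, though all 5 were positive in both tumor genotypes. Of all genes, 51.6% were positive in DKO and 52.5% in TKO. Against control, 5 in DKO and 4 in TKO had an unadjusted p under 0.05, where 24% and 16.3% of all genes did. DESeq2 called Ccna2, Ccnb1, Ccnb2 and Cdk1 in DKO and Ccnb2 in TKO, all higher than in controls. It called 10.4% (DKO) and 3.49% (TKO) of all genes. In DKO, Ccna2 was called in 6 of 21 alternatives and Ccnb2 in 6 of 20, with adjusted p from 0.00145 to 0.421 and from 0.00525 to 0.414. Ccnb2 had a log2 fold change of 1.75 ± 0.43 in DKO (adjusted p = 0.0516) and 2.06 ± 0.43 in TKO (adjusted p = 0.0915), and Ccna2 of 2.41 ± 0.59 in DKO (adjusted p = 0.0521). Ccnb1 in TKO was at 1.52 ± 0.50 (adjusted p = 0.182). Their medians were 1.75 in DKO and 1.52 in TKO, against 0.50 and 0.68 for the 8 members. Between TKO and DKO neither tool called any, and the lowest unadjusted p values were those of Ccnf (-0.41 ± 0.33, adjusted p = 0.726) and Ccna2 (-0.66 ± 0.54, adjusted p = 0.732).

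Of the 16 S phase and mitosis genes, 2 rose in DKO by edgeR and all 16 were positive in both tumor genotypes. Of all genes, edgeR called 2.42% in DKO, and 51.6% in DKO and 52.5% in TKO were positive. Mki67, the gene of the proliferation antigen Ki-67, was at 0.678 to 2.00 CPM in the controls and 4.30 to 23.8 in DKO (log2 fold change 2.89 ± 0.59, adjusted p = 0.0425). Plk1, a mitotic kinase gene, was at 0.271 to 1.39 CPM in the controls and 1.89 to 4.90 in DKO (log2 fold change 2.21 ± 0.50, adjusted p = 0.0469). In TKO edgeR called none, with 9 of 16 at an unadjusted p under 0.05 against control, as were 16.3% of all genes. The lowest unadjusted p values were those of the replication licensing gene Cdt1 (1.25 ± 0.29, adjusted p = 0.118) and Birc5 (2.08 ± 0.58, adjusted p = 0.146). In TKO against DKO neither tool called any, and they were those of Cdt1 (0.84 ± 0.28, adjusted p = 0.460) and Plk1 (-0.71 ± 0.45, adjusted p = 0.652). DESeq2 called 6 of the 16 in DKO, all higher than in controls, where it called 10.4% of all genes. In TKO it called Cdt1 (adjusted p = 0.00822), Mki67 (adjusted p = 0.0173) and Birc5 (adjusted p = 0.0203), also higher than in controls. There it called 3.49% of all genes. Without TKO 3 edgeR called Cdt1 (adjusted p = 0.0436) and Birc5 (adjusted p = 0.0399). The list's medians were 1.26 in DKO and 1.22 in TKO.

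The 6 edgeR calls named in these lists lay just under the threshold and were lost in some settings, while DESeq2 made all 6, with adjusted p from 3.51e-05 (Cdkn1a) to 0.00243 (Rbl2). All 6 were lost without control 1, control 2, control 3, DKO 1, DKO 2 or DKO 4, and some also without control 4, DKO 3, TKO 1 or TKO 2, with adjusted p from 0.0502 to 0.140. With the Y-linked genes as a covariate their adjusted p was 0.287 to 0.381. With total counts as the only scaling, Rbl2 (adjusted p = 0.140), Fbxo31 and Mki67 (adjusted p = 0.0528 each) and Plk1 (adjusted p = 0.0627) were not called. Over the 21 alternatives all kept their direction, with log2 fold changes of 2.03 to 3.10 for Cdkn1a, 2.00 to 2.30 for Cdkn2c, -0.91 to -0.58 for Rbl2, -1.38 to -1.09 for Fbxo31, 1.87 to 3.24 for Mki67 and 1.49 to 2.88 for Plk1 (20 alternatives, since at least 10 counts in every library left it out).

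Of 10 beta-catenin targets neither edgeR nor DESeq2 called any in any comparison, but DESeq2 gave no adjusted p for Nkd1, which it therefore did not judge. In edgeR 0, 1 and 0 had an unadjusted p under 0.05 (DKO against control, TKO against control, TKO against DKO), against 24%, 16.3% and 9% of all genes. The lowest unadjusted p values were those of Glul (log2 fold change 2.18 ± 1.28, adjusted p = 0.320) and Axin2 (1.66 ± 1.05, adjusted p = 0.360) in DKO, and of Nkd1 (3.97 ± 1.42, adjusted p = 0.205) and Glul (2.18 ± 1.28, adjusted p = 0.424) in TKO, both against control. Between TKO and DKO they were those of Nkd1 (2.78 ± 1.33, adjusted p = 0.566) and Sp5 (1.40 ± 1.13, adjusted p = 0.727). Without TKO 4 these TKO values turned to -0.51 for Nkd1 and -0.86 for Glul against control, and to -1.69 for Nkd1 and -1.41 for Sp5 against DKO. The median of the 10 genes was 0.95 in DKO and 1.31 in TKO.

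**Figure D5:**
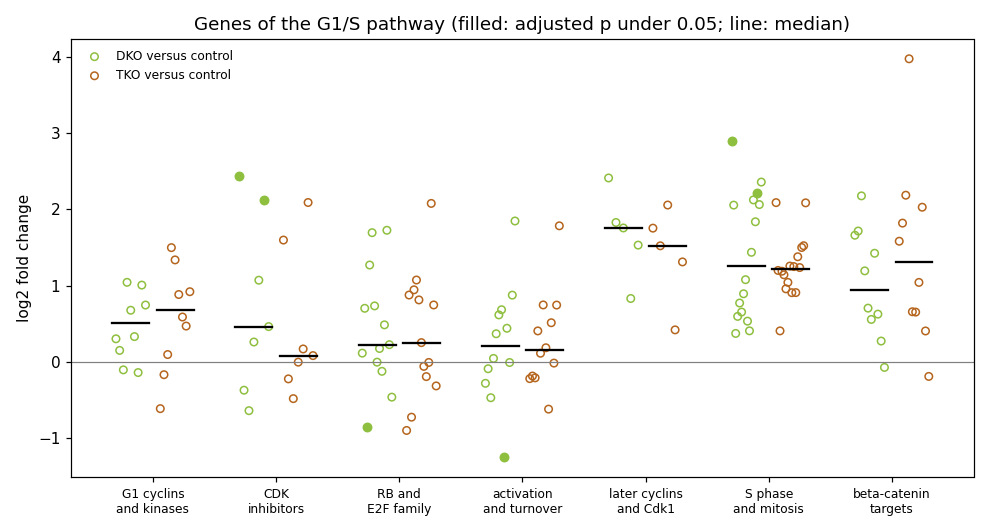
Log2 fold change (y axis) of each gene of the pathway lists (x axis) in DKO and in TKO against control, with the median as a line and edgeR calls filled. These are 2 inhibitors, 2 S phase and mitosis genes, Rbl2 and Fbxo31, all in DKO, and the line of the G1 cyclins and kinases leaves out Cdk4.

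Other cell types differed between libraries of a group. The summed CPM of 5 hepatocyte markers was 76760 to 131823 in controls, 119844 to 308528 in DKO and 46208 to 230845 in TKO, with TKO 4 the lowest and DKO 1 the highest, so hepatocyte RNA was abundant in every library. Most of this sum was Alb, at 286273 CPM in DKO 1 and 37568 in TKO 4, so its range mainly describes that gene. Sums of 5 B cell markers ran from 12.3 to 29.0 CPM in controls, 3.66 to 55.0 in DKO and 5.67 to 21.9 in TKO. Sums of 5 T cell markers were at most 10.3 CPM in any library, and Cd2 was at 0 counts in DKO 4. Sums of 5 macrophage markers ran from 162 to 442 CPM in controls, 60.1 to 384 in DKO and 116 to 511 in TKO. Sums of 5 endothelial markers ran from 78.1 to 131 CPM in controls, 112 to 173 in DKO and 125 to 204 in TKO. Sums of 5 cholangiocyte markers ran from 28.6 to 49.4 CPM in controls, 24.4 to 108 in DKO and 31.2 to 54.9 in TKO. Sums of 5 neutrophil markers were at most 13.6 CPM, and those of 5 stellate cell and fibroblast markers ran from 142 to 473 CPM over all libraries. Of 36 markers tested in these 8 lists, edgeR called 0 in each comparison. At an unadjusted p under 0.05 were 3, 1 and 1 in DKO against control, TKO against control and TKO against DKO, against 24%, 16.3% and 9% of all genes. DESeq2 called 3 of them, all in DKO against control: Ttr (lower), Pecam1 and Lyve1 (both higher). It also called the T cell marker Cd2 lower there (log2 fold change -2.28, adjusted p = 0.0192). Cd2 had too few counts to be among the 36. Of all genes, DESeq2 called 10.4% in this comparison. The part of these cells in the levels of the 9 genes was not tested.

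The genes whose levels ran most like a member over the 12 libraries were ranked by Spearman's rho of log2 CPM, which the libraries' shared scaling and tumor state also enter. For Cdk4 they were Jmjd7 and Myg1 (rho 0.90 each) and Rps12-ps11 (rho 0.90), and for Ccnd1 Top1 (rho 0.94), Ap1g1 and Dnaja1 (rho 0.92 each). For Cdc25a they were Gm5620 (rho 0.99), the mitotic cyclin gene Ccnb1 and Zfp280b (rho 0.98 each). For Ccne2 they were Chaf1b (rho 0.96), the helicase gene Mcm3 and Nup155 (rho 0.94 each). For Cdk6 they were Ier3 (rho 0.97), Gars and Tpr (rho 0.96 each). These are descriptions over 12 points, the highest among the tested genes that have a symbol.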

How the data were processed

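RNA was sequenced from 4 non-tumor wild-type livers, 4 DKO tumors and 4 TKO tumors. Per the labels and the study's methods, the authors selected poly(A) RNA, sequenced it on a SOLiD instrument, aligned reads to mm9 (BWA) and obtained gene counts from FeatureCounts. What was deposited is raw counts of 26301 Entrez genes, not normalized. The versions, strandedness and handling of multi-mapping reads are not given in the sources used here. Of the identifiers, 24191 had a symbol. Coordinates are 1-based and from GENCODE vM1 on mm9.

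Counts were tested with edgeR 4.0.16 in R 4.3.3 (TMM, filterByExpr, quasi-likelihood test, all 12 libraries, a mean per group, Benjamini-Hochberg adjustment over 13882 genes at 0.05). The standard error is the log2 fold change divided by the square root of F. The test was checked on simulated counts. Alternatives were DESeq2 1.42.0, its size factors in edgeR, scaling by total counts alone, no filter, at least 10 counts in every library, only the 8 libraries of a comparison, the replicate number as a block, limma 3.58.1 voom with quality weights, the mean of the Y-linked genes as a covariate, and leaving out each library. For the shares of the D-type cyclins per kilobase they were the longest transcript and total counts. The shares of the E-type cyclins and of Cdk4 and Cdk6 were not recomputed. The same alternatives were run for the named pathway genes after the data were seen.

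The members, the lists and the tests were chosen with earlier results of these data known. Genes named were the 9 members, the deleted genes, in each pathway list up to 4 called genes with the lowest p or else the 2 with the lowest unadjusted p, and for 5 members the 3 genes nearest in Spearman's rho. Lgr5, Ints8, Tspan31, Bysl, LTO1, Cd2 and genes named only as DESeq2 calls were named after their values were seen. The labels number the replicates of each group, and same-numbered libraries are from different mice. The sample descriptions carry codes of a letter and a number, and some letters recur in more than 1 group. Their meaning is not given in the sources used here, they were not used, and whether they mark a batch or litter was not tested. The p-values measure the spread between these samples. Depth bounds the precision of low genes, such as Ccne2 with 6 to 171 counts.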

Additional observations from a re-analysis of the deposited data

Results flagged for a closer look

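Ccnd1 in DKO 1, at 73.2 CPM, stood far below the other 3 DKO libraries, at 153 to 155 CPM. Its gap to the nearest of them, as a part of the group's range, was above Dixon's 95% critical value for 4 samples. This was the only such library in 27 groups of 4 values examined (9 genes in 3 groups), and chance gives about 1 in 20 groups.

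Cdk4 differed from the control mean in opposite directions in the tumor genotypes. The DKO mean minus the control mean was -3.36 CPM, with all 4 DKO libraries below the control mean, and the TKO mean minus the control mean was 18.2 CPM, with all 4 TKO libraries above it. Cdk4 was chosen for its difference between TKO and DKO, and this difference was not tested.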

How the results depend on the processing

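Low counts limit Ccne2 (6 to 171) and Ccne1 (13 to 331), and the 4 libraries per group limit every comparison. Genes called between DKO and control numbered 336, and 1518 with DESeq2, 59 with total counts only, 759 with the 8 libraries of the comparison, 1804 with voom and 0 with the Y-linked covariate. The Y-linked genes were lower on average in both tumor groups, so that covariate takes up part of the difference between groups. Leaving out 1 library gave 0 (without control 2 or control 3) to 651 (without TKO 3). Between TKO and control 12 were called, and 507 with DESeq2, 22 with no filter, 97 with voom, 0 with the Y-linked covariate and 0 to 231 when 1 library was left out (231 without TKO 3). Between TKO and DKO 0 were called, 56 with DESeq2 and 0 in every other setting.

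Of the 8 members, 1 was called between DKO and control (Cdk6) with DESeq2, at least 10 counts in every library, the 8 libraries of the comparison or voom, and 0 to 1 when 1 library was left out. Between TKO and control DESeq2 called 2, and leaving out 1 library gave 0 to 1. With the replicate block 509 genes and 1 member (Cdk6) were called between DKO and control, and 1 gene between TKO and control. Same-numbered libraries share only a number, and their deviations from the group means correlated at -0.17 to 0.05, -0.12 to 0.22 and -0.01 to 0.37 in the 3 comparisons. With at least 10 counts in every library Ccne2 was not tested.

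Several directions turned, none of them for a called value. With voom the log2 fold change was 0.021 for Ccnd3 in DKO, 0.12 for Ccnd2 in TKO and -0.20 for Glul in TKO, against control, and -0.60 for Nkd1 and -0.59 for Sp5 in TKO against DKO. With the Y-linked covariate it was -0.67 for Ccne1 and -0.45 for Ccne2 in DKO and -0.20 for Ccnd3 in TKO, against control, and -0.62 for Sp5 in TKO against DKO. Leaving out 1 library gave -0.047 to 0.44 for Ccnd2 in DKO, -0.33 to 0.12 for Ccnd2, -0.013 to 0.23 for Ccnd3, -0.86 to 2.57 for Glul and -0.51 to 4.37 for Nkd1 in TKO, against control. Between TKO and DKO it gave -0.22 to 1.00 for Ccne1, -0.039 to 1.17 for Ccne2, -0.061 to 0.35 for Cdc25a, -1.69 to 3.53 for Nkd1 and -1.41 to 1.95 for Sp5. The cause was not tested.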
